A study of Mus musculus with 12 samples.

Results

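A set of 10 genes that mark pericytes and smooth muscle cells, the mural cells that wrap blood vessels, were followed across 12 mouse breast tumours. They were taken by symbol from the table of 25116 gene rows, and all 10 symbols, Rgs5, Abcc9, Kcnj8, Cspg4, Mcam, Acta2, Tagln, Myh11, Cnn1 and Des, had 1 row each. The tumours came from the mouse line E0771, used as a model of triple-negative breast cancer, which was injected into the mammary fat pads of Tie2CreER;ERKi C57BL/6J mice, and they were collected at day 22. All host mice carried both transgenes, namely a tamoxifen-activated recombinase driven by the endothelial Tie2 promoter and an inducible knock-in of endorepellin, the C-terminal part of the basement membrane proteoglycan perlecan. In the induced group (7 tumours) the mice had been given tamoxifen before the tumour cells, and in the control group (5 tumours) a control injection. The Tie2 promoter is also active in some blood-forming cells. The action of tamoxifen itself and of the induced gene cannot be told apart in this design. The sources used here state neither the animals' ages nor what the control injection held, nor whether each tumour came from its own mouse, so p-values measure the spread between these tumours.

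Pericytes sit in the basement membrane of capillaries and smooth muscle cells surround larger vessels. Endothelial cells recruit both through platelet-derived growth factor, and their actin-based contraction sets vessel tone. In many tumours the mural coat is patchy, and fibroblasts of the tumour stroma and some cancer cells can also express contractile genes such as Acta2, so none of these genes belongs to mural cells alone. In bulk RNA, fewer cells of a type and less RNA per cell cannot be told apart.

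Total counts were 18993192 to 28372821 per library. On the first principal component of all genes tested (45.6% of the variance), control 1, control 2, induced 3 and induced 4 stood apart from the other 8 tumours, and results are given with and without them where they touch. Perlecan mRNA (Hspg2), which the knock-in may or may not be counted to, spanned 420 to 699 CPM in induced and 468 to 659 CPM in control tumours, so it is no check of the induction. Epithelial markers, which breast cancer cells can carry, were near the floor, with Krt8, Krt18, Krt19, Epcam, Cdh1 and Krt7 summing to 2.48 to 4.70 CPM in induced and 1.75 to 7.14 CPM in control tumours. The endothelial marker Pecam1 was present in every tumour, at 24.1 to 42.5 CPM in induced and 26.3 to 46.1 CPM in control tumours.

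Acta2, the alpha actin of smooth muscle and myofibroblasts, was the most abundant of the 10 genes per length of exon, and the genes most restricted to smooth muscle were the least abundant. In CPM (counts scaled to library size) per kilobase of exon, Acta2 stood at 11.4 ± 5.24 in induced and 16.9 ± 5.90 in control tumours (SD, n = 7 and n = 5). Mcam, an adhesion molecule of mural and endothelial cells, followed at 5.90 ± 0.978 in induced and 4.98 ± 0.746 in control tumours, then the intermediate filament gene Des at 5.42 ± 4.68 in induced and 3.02 ± 2.61 in control tumours, and the pericyte signalling regulator Rgs5 at 1.84 ± 1.09 in induced and 1.82 ± 1.13 in control tumours. Acta2 lay above Mcam in 12 of 12 tumours and Rgs5 above Tagln in 12 of 12, whereas Mcam lay above Des in 9 of 12 and Des above Rgs5 in 10 of 12. The levels of Tagln were 0.655 ± 0.674 in induced and 0.951 ± 0.891 in control tumours.

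The bottom of the order was held by the ATP-sensitive potassium channel subunits Kcnj8 and Abcc9, the proteoglycan gene Cspg4, the smooth muscle myosin heavy chain Myh11 and calponin, Cnn1. Their group means lay between 0.0595 (Cnn1 in induced tumours) and 0.282 CPM per kilobase (Kcnj8 in control tumours). Neighbours in this part of the order did not separate, since Cspg4 was above Abcc9 in 6 of 12 tumours, Abcc9 above Myh11 in 8 of 12 and Myh11 above Cnn1 in 8 of 12. The low genes rested on few reads, with 1 to 24 counts per tumour for Cnn1, 2 to 37 for Kcnj8, 4 to 131 for Tagln and 6 to 103 for Myh11, against 300 to 1673 for Acta2. Length was the union of annotated exons. With the longest transcript in its place, Cspg4 was at 0.228 CPM per kilobase in induced and 0.298 CPM per kilobase in control tumours.

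**Figure D1:**
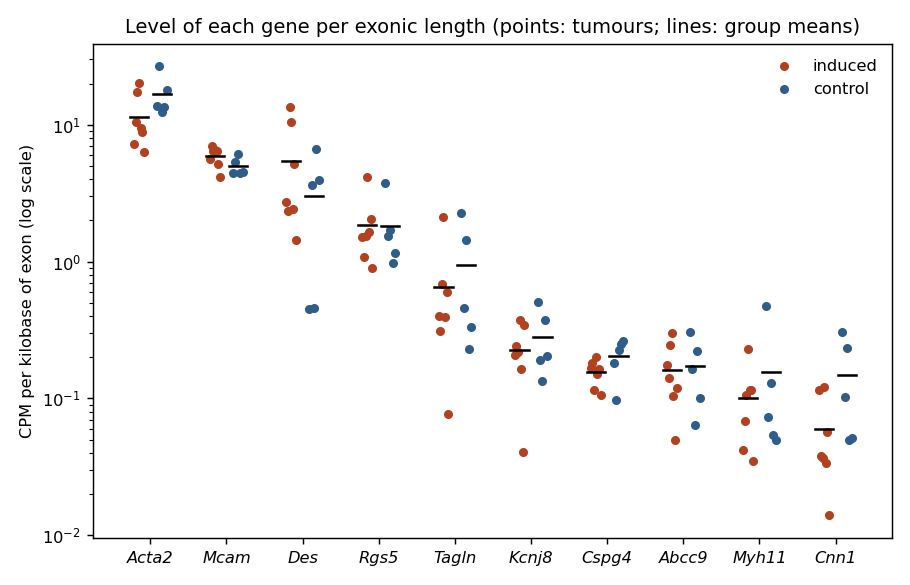
Level of the 10 genes in CPM per kilobase of exon on a log axis, ordered by their mean in control tumours, with a point per tumour (induced left, control right) and lines at the group means. Acta2 has the highest and Cnn1 the lowest mean, and the points of neighbouring genes overlap in both groups except Acta2 and Mcam in control tumours.

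No gene of the set passed the test between induced and control tumours. Counts were compared with edgeR's quasi-likelihood test across 9 of the 10 members and all other genes that passed a filter on low counts, 15199 in total, and p-values were adjusted over all of them by Benjamini-Hochberg. Cnn1 had too few counts to enter it. Of the 9 members tested, 0 had an adjusted p under 0.05, against 0% of all genes tested, and 0 had an unadjusted p under 0.05, against 2.13% of all genes tested. In 0 of the 9 were the groups free of overlap, against 0.0592% of all genes tested. The fold change was higher in induced tumours for 3 members and lower for 6, with a median log2 fold change of -0.30, while of all genes tested 7573 were higher and 7626 lower with a median of -0.00083. DESeq2 also called 0 of the 10 members at an adjusted p under 0.05, against 0 of all genes. At an unadjusted p under 0.05 it had 0 of the 10, against 607 of 24895 genes. In the table of fold changes and p-values that the authors deposited (the authors' deposited table), the 10 members shared an adjusted p of 0.994, and Cnn1 alone had an unadjusted p under 0.05. The share of all genes under 0.05 was not counted for that table. By tumour, control 1 was the highest of the 12 for 5 of the 10 members (Rgs5 not among them), and induced 7 was the lowest for 6 of the 10.

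**Figure D2:**
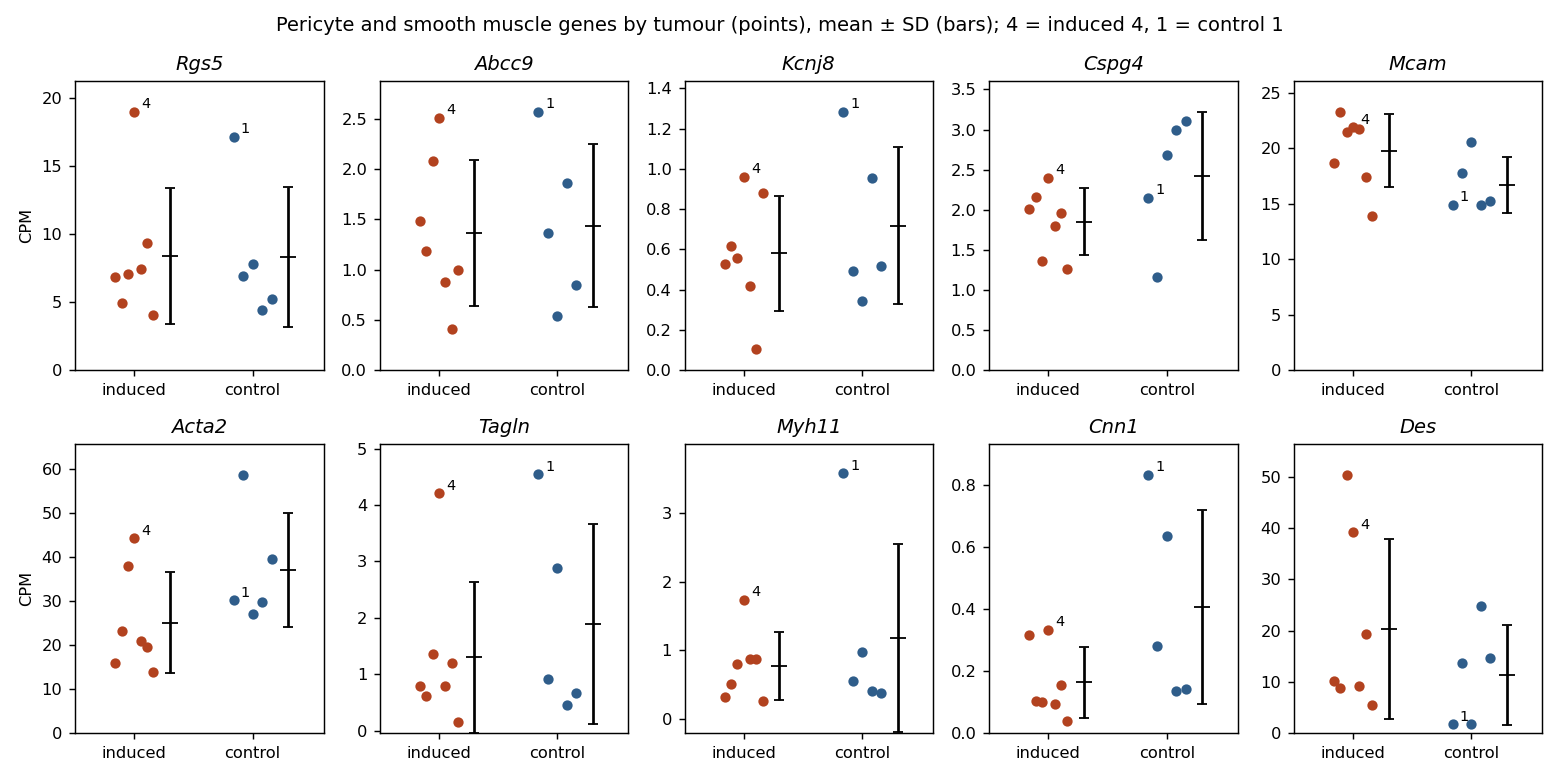
CPM of each gene in the 7 induced (left) and 5 control (right) tumours, with a point per tumour and the mean ± SD as bars. Induced 4 and control 1 are numbered and are the highest tumours of their groups for Rgs5, Abcc9, Kcnj8, Tagln, Myh11 and Cnn1, and the groups overlap in every panel.

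Among the pericyte genes, Rgs5 was highest in 1 tumour of each group and its group means were close. Rgs5 (ENSMUSG00000026678, chromosome 1, bases 169655501 to 169695813, plus strand, GRCm38 as for all positions) codes for a protein that shortens G protein signalling and is among the most used pericyte markers. In induced tumours Rgs5 ran from 4.08 to 18.9 CPM with a median of 7.03 CPM, and in control tumours 1 to 5 it was at 17.1, 6.94, 7.77, 4.40 and 5.23 CPM. Induced 4 at 18.9 CPM and control 1 at 17.1 CPM stood above the other 10 tumours, which lay between 4.08 and 9.31 CPM, and the groups overlapped. Means were 8.37 ± 4.96 CPM in induced and 8.29 ± 5.12 CPM in control tumours (SD, n = 7 and n = 5), with a log2 fold change of 0.013 (edgeR, SE 0.40, adjusted p = 0.99989). The 95% interval of the difference in mean log2 CPM, from inverting the exact permutation test, was -0.92 to 0.96. The fold change was -0.33 without induced 4, 0.46 without control 1 and 0.12 without both. Without control 1, control 2, induced 3 and induced 4 it was 0.16 (SE 0.28).

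Abcc9 and Kcnj8 encode the sulphonylurea receptor SUR2 and the pore subunit Kir6.1, which join into the ATP-sensitive potassium channel of pericytes and smooth muscle. Both genes lie on chromosome 6 on the minus strand (GRCm38), Kcnj8 from 142564837 to 142571614 and Abcc9 from 142587862 to 142702315, 16.2 kb apart. In induced tumours Abcc9 ran from 0.414 to 2.51 CPM with a median of 1.19 CPM, and in control tumours 1 to 5 it was at 2.57, 1.37, 0.538, 1.86 and 0.848 CPM. In induced tumours Kcnj8 ran from 0.103 to 0.960 CPM with a median of 0.556 CPM, and in control tumours 1 to 5 it was at 1.28, 0.490, 0.342, 0.953 and 0.518 CPM. Control 1 was the highest and induced 6 the lowest tumour for both, and the groups overlapped for both. Abcc9 averaged 1.36 ± 0.723 CPM in induced and 1.44 ± 0.808 CPM in control tumours (SD, n = 7 and n = 5), with a log2 fold change of -0.079 (SE 0.45). Kcnj8 averaged 0.580 ± 0.286 CPM in induced and 0.717 ± 0.390 CPM in control tumours (SD, n = 7 and n = 5), with a log2 fold change of -0.30 (SE 0.45). The 95% intervals of the difference in log2 CPM were -1.14 to 1.00 for Abcc9 and -1.32 to 0.68 for Kcnj8, and without control 1 the fold changes were 0.23 for Abcc9 and 0.020 for Kcnj8. Abcc9 also turned positive without induced 5 (0.0039), induced 6 (0.076) or control 4 (0.018).

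Across tumours the paired subunits varied together. Over the 12 tumours log2 CPM of Abcc9 and Kcnj8 had Pearson's r = 0.83 (permutation p = 0.00045, adjusted over 36 pairs of members p = 0.00405) and Spearman's rho = 0.83 (permutation p = 0.00136, adjusted p = 0.0122). Without control 3 and induced 6, the tumours farthest from the median of Abcc9, r was 0.65 (permutation p = 0.0461, adjusted p = 0.226), so the adjusted call was lost without those tumours. Of them, induced 6 had 8 counts of Abcc9 and 2 of Kcnj8. Within the 8 tumours other than control 1, control 2, induced 3 and induced 4, r was 0.85 (exact permutation p = 0.00585, adjusted p = 0.0618). Kcnj8 per kilobase was 0.822 to 2.91 times Abcc9 per kilobase. The start regions of this neighbouring, co-varying pair are shown from RefSeq (GRCm38.p6, minus strand, 250 bases before to 50 after the annotated start), at chr6:142702225-142702524 for Abcc9 and chr6:142571565-142571864 for Kcnj8. Capitals mark a match to the MEF2 site, the motif of a muscle transcription factor family, searched on both strands together with the CArG box, a CArG box with 1 inner base other than A or T, TATAAA and TATATAA.
Abcc9: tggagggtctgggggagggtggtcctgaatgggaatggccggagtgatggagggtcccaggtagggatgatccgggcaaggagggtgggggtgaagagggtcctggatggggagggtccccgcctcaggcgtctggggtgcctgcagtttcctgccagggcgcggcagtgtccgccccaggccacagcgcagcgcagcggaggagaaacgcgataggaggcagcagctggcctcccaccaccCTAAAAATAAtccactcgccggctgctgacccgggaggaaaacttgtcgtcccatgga
Kcnj8: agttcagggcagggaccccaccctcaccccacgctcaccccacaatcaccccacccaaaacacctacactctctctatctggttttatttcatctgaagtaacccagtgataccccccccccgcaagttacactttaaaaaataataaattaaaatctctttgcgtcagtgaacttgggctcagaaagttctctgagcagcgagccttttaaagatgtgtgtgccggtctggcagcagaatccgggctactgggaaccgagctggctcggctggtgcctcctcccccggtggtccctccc
The MEF2 match of Abcc9 fills bases 243 to 252 of its window, and 3.19% of 32851 windows of 300 bases around RefSeq gene starts hold such a match. The Kcnj8 window held none of the 5 motifs.

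Cspg4 and Mcam, surface proteins of pericytes, had fold changes of opposite sign, and neither passed the test. Cspg4 (ENSMUSG00000032911, chromosome 9, bases 56865033 to 56899870, plus strand) codes for the proteoglycan NG2, which is also made by glial precursors and melanocytes. In induced tumours Cspg4 ran from 1.26 to 2.40 CPM with a median of 1.97 CPM, and in control tumours 1 to 5 it was at 2.15, 1.16, 2.69, 3.00 and 3.11 CPM. Control 3, 4 and 5 were the highest tumours and control 2 the lowest, so the groups overlapped. Means were 1.85 ± 0.413 CPM in induced and 2.42 ± 0.799 CPM in control tumours (SD, n = 7 and n = 5), with a log2 fold change of -0.38 (edgeR, SE 0.27, adjusted p = 0.99989) and a 95% interval of -0.84 to 0.24 for the difference in log2 CPM. Without control 1, control 2, induced 3 and induced 4 the groups no longer overlapped, at 1.26 to 2.16 CPM in 5 induced and 2.69 to 3.11 CPM in 3 control tumours. The log2 fold change there was -0.69 (edgeR, SE 0.25, unadjusted p = 0.0172, adjusted p = 0.990). Of the 9 members tested, 2 (Cspg4 and Acta2) were free of overlap in these 8 tumours, against 2.74% of all genes tested, and an unadjusted p under 0.05 was reached there by 3.69% of all genes tested.

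Mcam (ENSMUSG00000032135, chromosome 9, bases 44134469 to 44142727, plus strand) codes for the adhesion molecule CD146 and varied least of the 9 tested members on the log2 scale. In induced tumours Mcam ran from 13.9 to 23.2 CPM with a median of 21.4 CPM, and in control tumours 1 to 5 it was at 14.9, 17.8, 20.6, 14.9 and 15.2 CPM. Of the induced tumours, 4 lay above every control tumour and 1, induced 7, lay below all of them. Means were 19.7 ± 3.28 CPM in induced and 16.7 ± 2.50 CPM in control tumours (SD, n = 7 and n = 5), with a log2 fold change of 0.24 (edgeR, SE 0.14, adjusted p = 0.99989) and a 95% interval of -0.09 to 0.54 for the difference in log2 CPM. The standard deviation of its log2 CPM over the 12 tumours, 0.26, was larger than that of 40.1% of all genes tested. For the other tested members this share was 67.6% for Cspg4 to 98.7% for Des.

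Among the contractile genes, Acta2 had the smallest unadjusted p of the 9 members tested, and it was lower in induced tumours on average. Acta2 (ENSMUSG00000035783, chromosome 19, bases 34241090 to 34255590, minus strand) forms the thin filaments of smooth muscle and is also the standard marker of myofibroblasts. In induced tumours Acta2 ran from 13.8 to 44.2 CPM with a median of 20.8 CPM, and in control tumours 1 to 5 it was at 30.1, 58.6, 27.0, 29.8 and 39.5 CPM. Of the induced tumours, 5 lay below every control tumour, while induced 3 at 37.8 CPM and induced 4 at 44.2 CPM lay among the higher controls. Means were 25.0 ± 11.5 CPM in induced and 37.0 ± 13.0 CPM in control tumours (SD, n = 7 and n = 5), with a log2 fold change of -0.57 (edgeR, SE 0.29, adjusted p = 0.99989). Its unadjusted p was 0.0766, and the 95% interval of the difference in log2 CPM was -1.34 to 0.11, or fold changes of 0.395 to 1.08 (exact permutation test over 792 splits, two-sided, p = 0.0884). The coding sequence of Acta2 is very similar to those of the other muscle actins Actg2, Acta1 and Actc1, so reads may have been assigned between them.

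Acta2 also had a negative fold change in the 8 tumours that did not stand apart. Without control 1, control 2, induced 3 and induced 4, Acta2 was at 13.8 to 23.1 CPM in 5 induced tumours and 27.0 to 39.5 CPM in 3 control tumours, and the groups did not overlap. The log2 fold change was then -0.80 (SE 0.17) with an unadjusted p of 0.000594 and an adjusted p of 0.990 by edgeR, so it still missed the threshold over all genes. With each tumour left out in turn it stayed negative, between -0.77 without induced 4 and -0.34 without control 2. The log2 sum of fibroblast markers, described further on, had a positive correlation with Acta2 that did not pass after adjustment (r = 0.60, permutation p = 0.0383, adjusted over 36 relations p = 0.345, and r = 0.33 in the 8 tumours), and its part in the result was not tested.

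The start region of Acta2 is shown because it is the most abundant gene of the set and the textbook target of serum response factor, which binds the CArG box. It is taken from RefSeq (GRCm38.p6, minus strand, chr19:34255324-34255623), and that of Rgs5 (plus strand, chr1:169655251-169655550), the most abundant gene of the set that is used mainly as a pericyte marker, is set beside it. Capitals mark TATATAA and matches to a CArG box with 1 inner base other than A or T.
Acta2: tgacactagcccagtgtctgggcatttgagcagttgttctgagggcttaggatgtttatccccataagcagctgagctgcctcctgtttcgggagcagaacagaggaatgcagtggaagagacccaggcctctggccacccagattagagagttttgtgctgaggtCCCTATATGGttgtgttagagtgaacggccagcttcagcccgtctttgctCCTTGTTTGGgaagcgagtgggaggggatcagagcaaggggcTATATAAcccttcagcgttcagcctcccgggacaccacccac
Rgs5: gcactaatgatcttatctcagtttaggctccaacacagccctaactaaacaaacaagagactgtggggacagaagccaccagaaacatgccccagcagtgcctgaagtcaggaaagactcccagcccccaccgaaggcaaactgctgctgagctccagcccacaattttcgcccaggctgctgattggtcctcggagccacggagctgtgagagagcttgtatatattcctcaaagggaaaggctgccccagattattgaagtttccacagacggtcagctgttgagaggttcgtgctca
Acta2 holds matches to that relaxed CArG box at bases 167 to 176 and 217 to 226 of the window, before the annotated start. Its TATATAA lies at bases 259 to 265, which is after that start (positions 9 to 15). The Rgs5 window held none of the 5 motifs searched. Such a relaxed CArG match occurred in 8.50% of all windows, the strict CArG box in 1.63%, TATATAA in 3.24% and TATAAA in 13.6%. Of the 10 members, 8 had a window in the table, and Des, Cnn1, Cspg4 and Mcam held none of the 5 motifs. Tagln and Myh11 had no entry.

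Tagln and Myh11, which mark differentiated smooth muscle, were high in the tumours that were high in Rgs5. Tagln (ENSMUSG00000032085, chromosome 9, bases 45929619 to 45936058, minus strand) codes for an actin-binding protein of the contractile apparatus. In induced tumours Tagln ran from 0.153 to 4.21 CPM with a median of 0.792 CPM, and in control tumours 1 to 5 it was at 4.54, 0.911, 2.88, 0.454 and 0.660 CPM. Control 1, induced 4 and control 3 stood above the other 9 tumours, and induced 7 was the lowest. Means were 1.30 ± 1.34 CPM in induced and 1.89 ± 1.77 CPM in control tumours (SD, n = 7 and n = 5), with a log2 fold change of -0.53 (SE 0.70) and a 95% interval of -2.21 to 1.23 for the difference in log2 CPM. The fold change was 0.10 without control 1 and -1.22 without induced 4, and it was -0.59 without both. Without control 1, control 2, induced 3 and induced 4 it was -0.92 (SE 0.64). Of the exonic bases of Tagln, 62.4% also lie in exons of the antisense gene Gm48529 and 5.43% in exons of Pcsk7 on the opposite strand. Whether strand was used in counting is not stated in any source used here, so reads in the shared bases may have been assigned to either gene or dropped, and the level of Tagln is uncertain. Gm48529 itself had 18 to 43 counts in induced and 30 to 44 counts in control tumours.

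Myh11 (ENSMUSG00000018830, chromosome 16, bases 14194535 to 14291372, minus strand) codes for the smooth muscle myosin heavy chain, the most lineage-restricted marker in the set. In induced tumours Myh11 ran from 0.267 to 1.74 CPM with a median of 0.809 CPM, and in control tumours 1 to 5 it was at 3.57, 0.561, 0.977, 0.409 and 0.377 CPM. Control 1 alone held 103 of the 278 counts of all tumours, and induced 4 was the highest induced tumour at 1.74 CPM. Means were 0.772 ± 0.497 CPM in induced and 1.18 ± 1.36 CPM in control tumours (SD, n = 7 and n = 5), with a log2 fold change of -0.61 (SE 0.61) and a 95% interval of -1.62 to 0.96 for the difference in log2 CPM. The fold change turned to 0.42 without control 1, was -0.97 without induced 4, and was 0.070 without both. Without control 1, control 2, induced 3 and induced 4 it was -0.047 (SE 0.53). Cnn1 (ENSMUSG00000001349, chromosome 9, bases 22099216 to 22109630, plus strand), an actin-binding regulator of contraction, had too few counts for the test. In induced tumours Cnn1 ran from 0.0382 to 0.332 CPM with a median of 0.103 CPM, and in control tumours 1 to 5 it was at 0.832, 0.280, 0.635, 0.136 and 0.141 CPM. Control 1 and control 3 were the highest tumours, and 4 of 7 induced tumours lay below every control. Fitted without the filter on low counts, Cnn1 had a log2 fold change of -1.30 by edgeR (SE 0.60, unadjusted p = 0.0464, adjusted p = 0.99983) and by DESeq2 -1.33 (unadjusted p = 0.0509, adjusted p = 0.99998), and in the authors' deposited table it was -1.33 with an unadjusted p of 0.0481.

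Over the 12 tumours, Rgs5, Tagln and Myh11 varied together. Of 36 pairs of members, 4 had an adjusted permutation p under 0.05 for Pearson's r, namely Abcc9 with Kcnj8 and the 3 pairs of Rgs5, Tagln and Myh11. Rgs5 with Tagln had r = 0.90 (permutation p = 6e-05, adjusted p = 0.00108) and rho = 0.92 (permutation p = 6e-05, adjusted p = 0.0018). Rgs5 with Myh11 had r = 0.90 (permutation p = 0.00017, adjusted p = 0.00204) and rho = 0.92 (permutation p = 0.0001, adjusted p = 0.0018), and Myh11 with Tagln r = 0.89 (permutation p = 5e-05, adjusted p = 0.00108) and rho = 0.86 (permutation p = 0.0007, adjusted p = 0.0084). Without control 1 and induced 4, the farthest tumours for each of these pairs, r was 0.80, 0.78 and 0.80 in the same order (adjusted permutation p = 0.035, 0.102 and 0.0308), so the adjusted call of Rgs5 with Myh11 was lost without those tumours. Within the 8 tumours other than control 1, control 2, induced 3 and induced 4, r was 0.80, 0.78 and 0.78 (adjusted exact permutation p = 0.0696, 0.195 and 0.0618), so none of the 3 pairs passed there for r after adjustment. For rho within the 8, Rgs5 with Tagln passed at 0.95 (exact permutation p = 0.00114, adjusted p = 0.0205), while Rgs5 with Myh11 was at 0.76 (adjusted p = 0.221, exact permutation test) and Myh11 with Tagln at 0.69 (adjusted p = 0.278, exact permutation test). Rgs5 and the channel gene Kcnj8, both used as pericyte markers, ran in opposite directions outside control 1 and induced 4. Their r was 0.11 over the 12 tumours (permutation p = 0.729, adjusted p = 0.905; rho = -0.10, permutation p = 0.753, adjusted p = 1), -0.86 without control 1 and induced 4 (permutation p = 4e-05, adjusted p = 0.00144) and -0.91 within the 8 (exact permutation p = 0.000149, adjusted p = 0.00536; rho = -0.95, exact permutation p = 0.00114, adjusted p = 0.0205). Kcnj8 had 2 to 37 counts per tumour. The sign was not particular to this pair. Within the 8, Kcnj8 had r = -0.67 with Tagln and -0.73 with Myh11 (adjusted exact permutation p = 0.306 and 0.146). Abcc9 had r = -0.69 with Rgs5, -0.57 with Tagln and -0.69 with Myh11 there (adjusted exact permutation p = 0.255, 0.371 and 0.255). None of these passed for r after adjustment. Acta2 had r = 0.45 with Tagln (permutation p = 0.145, adjusted p = 0.898) and r = 0.32 with Myh11 (permutation p = 0.305, adjusted p = 0.898). With Cspg4, Acta2 had r = 0.055 over the 12 tumours (permutation p = 0.863, adjusted p = 0.905) and r = 0.92 within the 8 (exact permutation p = 0.00196, adjusted p = 0.0353), where both genes separate the groups. The differences between these correlations were not tested.

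**Figure D3:**
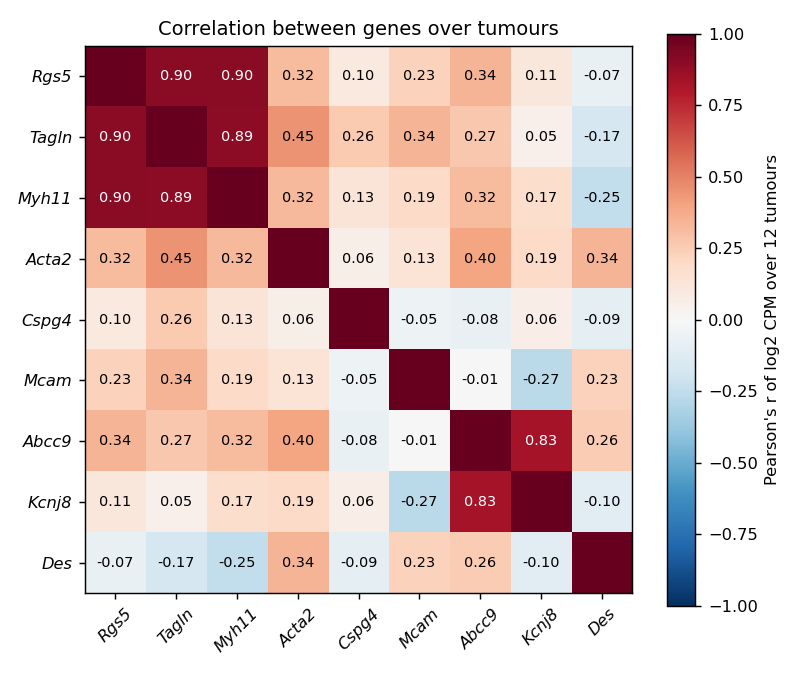
Pearson's r of log2 CPM between the 9 tested genes over the 12 tumours, with each value printed in its cell. Rgs5, Tagln and Myh11 form a block at 0.89 to 0.90 and Abcc9 with Kcnj8 a pair at 0.83, while the pairs of Acta2 run from 0.055 to 0.45 and Rgs5 with Kcnj8 stands at 0.11.

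The ratio of Acta2 to Tagln, both genes of the contractile apparatus, differed between tumours of the same group. Per kilobase, Acta2 exceeded Tagln by 9.50 times in induced 4 to 81.9 times in induced 7 among induced tumours. Among control tumours the ratio was 6.01 in control 1, 8.49 in control 3, 54.2 in control 5, 58.3 in control 2 and 59.4 in control 4. Control 2, the tumour with the highest Acta2 at 58.6 CPM, had Tagln at 0.911 CPM, and control 1 had the highest Tagln at 4.54 CPM with Acta2 at 30.1 CPM. The height of this ratio shares the uncertainty of Tagln through its antisense overlap.

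Genes outside the set were ranked by how like their pattern over the 12 tumours was to that of Rgs5, Myh11 and Acta2. The ranking held 10955 non-member genes with a mean log2 CPM over 1, and genes with predicted or clone-type symbols were left out. Those with the highest Pearson r to Rgs5 were Lox (0.94), Col15a1 (0.94), Col1a1 (0.93), Loxl2 (0.93) and Grb10 (0.93), which include the collagen genes Col1a1 and Col15a1 and the collagen-crosslinking oxidases Lox and Loxl2. Those most like Myh11 were Tanc2 (0.96), Fn1 (0.95), Aspn (0.94), Prss23 (0.93) and Grb10 (0.92), among them fibronectin (Fn1) and the small matrix proteoglycan asporin (Aspn). Those most like Acta2 were Wdr62 (0.91), Slc2a6 (0.91), Ncaph (0.90), Cdc20 (0.89) and Iqgap3 (0.89), of which Cdc20 activates the anaphase-promoting complex, Ncaph is a condensin subunit and Wdr62 a spindle pole protein. Within the 8 tumours that did not stand apart, r to these genes was 0.73 to 0.83 for Rgs5, 0.74 to 0.94 for Myh11 and 0.78 to 0.87 for Acta2. These are the top ranks of a long list and are given as a description, with the tumours' depth and composition shared by all genes. Col1a1 was at 407 CPM in induced 4 and 589 CPM in control 1, the tumours with the highest Rgs5.

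Des, which muscle of every kind makes, varied most of the 9 tested members on the log2 scale. Des (ENSMUSG00000026208, chromosome 1, bases 75360329 to 75368579, plus strand) codes for desmin, the intermediate filament of all muscle, and is also used as a pericyte marker. In induced tumours Des ran from 5.38 to 50.5 CPM with a median of 10.2 CPM, and in control tumours 1 to 5 it was at 1.70, 13.6, 1.71, 24.9 and 14.7 CPM. Induced 3 and induced 4 lay above every control tumour, and control 1 and control 3 lay below every induced tumour. Means were 20.4 ± 17.6 CPM in induced and 11.3 ± 9.82 CPM in control tumours (SD, n = 7 and n = 5), with a log2 fold change of 0.85 (edgeR, SE 0.72, adjusted p = 0.99989) and a 95% interval of -0.90 to 3.11 for the difference in log2 CPM. Without control 1, control 2, induced 3 and induced 4 the fold change turned to -0.40 (SE 0.72).

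All 19 skeletal muscle markers listed, among them Acta1, Ckm and Neb, had reads in these tumours, 4 of them with 0 counts in at least 1 tumour (Pvalb, Tcap, Ckmt2 and Xirp2), and their sum ran from 23.4 to 663 CPM in induced and 10.4 to 740 CPM in control tumours. It was highest in control 4 and induced 4 and lowest in control 1, whose Des was also the lowest of all. Other tumours did not follow this order. Induced 3 had the highest Des, at 50.5 CPM, with a sum of 182 CPM. Induced 2 had a sum of 296 CPM with Des at 8.81 CPM, and control 3 a sum of 42.1 CPM with Des at 1.71 CPM. Des and the log2 sum had r = 0.75 over the 12 tumours (permutation p = 0.00535, adjusted over 36 relations p = 0.0963) and rho = 0.80 (permutation p = 0.0026, adjusted p = 0.0936). Without control 4 and induced 4, the farthest tumours, r was 0.69 (permutation p = 0.026, adjusted p = 0.218), and within the 8 tumours that did not stand apart it was 0.57 (exact permutation p = 0.143, adjusted p = 0.465). None of these passed after adjustment, and the part of skeletal muscle in the level of Des was not tested. With Rgs5, Tagln and Myh11, Des had r between -0.25 and -0.072 over the 12 tumours, with adjusted permutation p of 0.898 to 0.905. Its r with Tagln turned to 0.73 without control 1 and control 3, the farthest tumours for Des (permutation p = 0.0142, adjusted p = 0.103). Within the 8 tumours that r was -0.38 (exact permutation p = 0.332, adjusted p = 0.747).

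**Figure D4:**
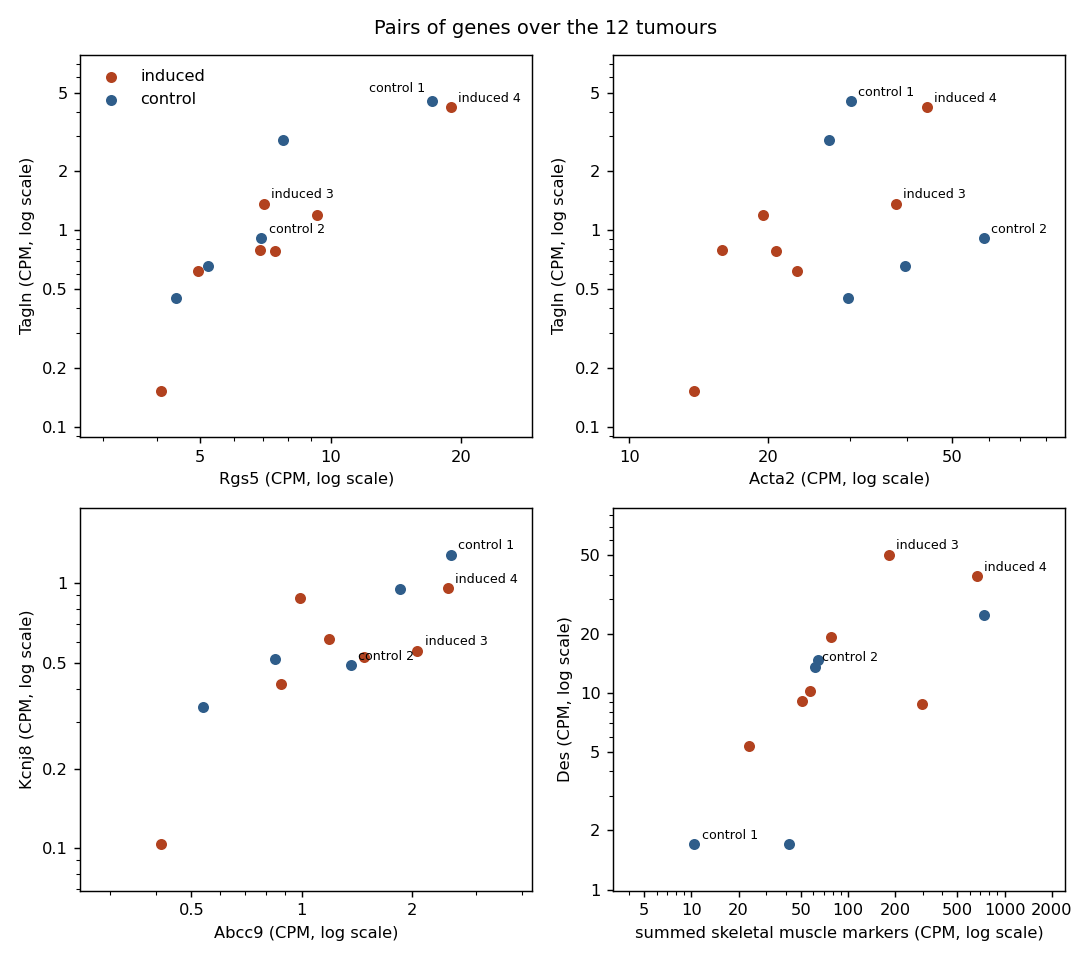
Pairs of values over the 7 induced and 5 control tumours on log axes, in CPM: Rgs5 with Tagln, Acta2 with Tagln, Abcc9 with Kcnj8, and the summed skeletal muscle markers with Des. Induced 4 and control 1 lie at the upper right for Rgs5 with Tagln, whereas control 2 has the highest Acta2 and a middling Tagln.

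Markers of the other cell types these genes could come from were measured beside them. All 12 fibroblast markers had reads in every tumour and summed to 885 to 3022 CPM in induced and 1193 to 4086 CPM in control tumours, with control 1, induced 4, induced 3 and control 2 highest in that order. Of the 12, 1 was higher and 11 lower in induced tumours with a median log2 fold change of -0.90, 0 had an adjusted p under 0.05, and Lum, the matrix proteoglycan lumican, had the smallest unadjusted p (0.0387). Control 1 was the highest tumour for 10 of the 12. Col6a1 and Col3a1 made up most of the sum. Abcc9 had the highest correlation with it (r = 0.83, permutation p = 0.00109, adjusted over 36 relations p = 0.0392, and rho = 0.75, permutation p = 0.00687, adjusted p = 0.124). Without control 1 and induced 6 its r was 0.68 (permutation p = 0.0303, adjusted p = 0.218), and within the 8 tumours 0.59 (exact permutation p = 0.118, adjusted p = 0.465), so the call was lost in both smaller sets. It was the single one of the 36 relations to pass. Rgs5, Tagln and Myh11 had positive r with the sum over the 12 tumours (0.50, 0.44 and 0.53, adjusted permutation p = 0.514, 0.585 and 0.497) and negative r within the 8 (-0.65, -0.52 and -0.56, adjusted exact permutation p = 0.465 for each), and none passed. Col1a1, a marker of this list named above for its high r to Rgs5, had r = 0.80 with Rgs5 within the 8. The sign within the 8 therefore differed between the sum and this marker. The part of fibroblasts in any difference between the groups was not tested. The 12 endothelial markers, all with reads in every tumour, summed to 152 to 213 CPM in induced and 151 to 216 CPM in control tumours, and the member most correlated with them was Mcam (r = 0.52, permutation p = 0.0828, adjusted p = 0.497). Myoepithelial markers were near the floor, with 5 of 5 at 0 in at least 1 tumour and sums of 0.406 to 4.15 CPM in induced and 0.140 to 2.84 CPM in control tumours. Schwann and glial markers, another source of Cspg4 and Mcam, summed to 4.54 to 9.38 CPM in induced and 5.57 to 10.4 CPM in control tumours.

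None of the other pericyte genes tested passed between the groups. Of 25 symbols listed, 23 had a row. The others, Gucy1a3 and Gucy1b3, were listed as other symbols for Gucy1a1 and Gucy1b1, which had rows. Of the 23, 12 passed the filter, of which 5 were higher and 7 lower in induced tumours, with a median log2 fold change of -0.070. Of these, 0 had an adjusted or an unadjusted p under 0.05. Those with the smallest p were Cd248, the stromal surface protein endosialin, at 13.5 ± 3.95 CPM in induced and 19.1 ± 11.0 CPM in control tumours, Steap4, a metalloreductase, at 1.20 ± 1.23 CPM in induced and 2.60 ± 2.66 CPM in control tumours, the transcription factor Ebf1 at 2.40 ± 0.791 CPM in induced and 3.42 ± 2.08 CPM in control tumours, and the Ras-like Rasl12 at 3.44 ± 0.357 CPM in induced and 3.01 ± 0.323 CPM in control tumours (SD, n = 7 and n = 5). Control 1 was the highest tumour for Cd248, Steap4 and Ebf1. The genes that did not pass the filter include Higd1b, Vtn, Cox4i2, Heyl and Tbx18, each with a mean under 1 CPM in both groups.

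Of 29 other smooth muscle and contractile genes, 23 passed the filter, with 8 higher and 15 lower in induced tumours and a median log2 fold change of -0.041, and 0 had an adjusted or an unadjusted p under 0.05. The smallest p belonged to Sncg, a synuclein, at 0.810 ± 0.572 CPM in induced and 1.62 ± 1.06 CPM in control tumours, Npnt, the matrix protein nephronectin, at 0.944 ± 0.537 CPM in induced and 0.523 ± 0.219 CPM in control tumours, Cald1, the actin-binding caldesmon, at 690 ± 77.9 CPM in induced and 621 ± 91.9 CPM in control tumours, and Actg2, the enteric smooth muscle actin, at 2.32 ± 1.76 CPM in induced and 3.28 ± 1.81 CPM in control tumours (SD, n = 7 and n = 5). This list holds widely expressed cytoskeletal genes such as Flna, Tpm1 and Cald1 next to restricted ones. The genes of this list that did not pass the filter were Lmod1, Itga8, Susd5, Casq2, Map3k7cl and Olfr558, whereas Actg2, Myl9 and Synpo2 were among those that did. Myocd, the coactivator that switches on the smooth muscle programme, was at 0 in at least 1 tumour and did not pass the filter.

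Most regulators upstream of the contractile genes passed the filter. Of 8 tested regulators of the serum response factor pathway, 6 were higher and 2 lower in induced tumours (median log2 fold change 0.088), and 0 passed. Srf itself was at 124 ± 5.63 CPM in induced and 125 ± 13.1 CPM in control tumours (SD, n = 7 and n = 5). The smallest p was that of Fhl2, a cofactor of serum response factor, at 79.4 ± 13.6 CPM in induced and 65.1 ± 6.32 CPM in control tumours, with a log2 fold change of 0.29 (SE 0.12), an unadjusted p of 0.0327 and an adjusted p of 0.99989 by edgeR. Of 17 tested ligands and receptors through which endothelium and mural cells recruit each other, 9 were higher and 8 lower (median 0.0065), and 0 had an adjusted or an unadjusted p under 0.05. Those with the smallest p were the TGF-beta family receptor Acvrl1 at 9.70 ± 2.92 CPM in induced and 14.6 ± 8.16 CPM in control tumours, the Notch ligand Jag1 at 29.7 ± 2.31 CPM in induced and 25.5 ± 5.45 CPM in control tumours, the co-receptor Eng at 118 ± 11.6 CPM in induced and 130 ± 13.7 CPM in control tumours and the TGF-beta receptor Tgfbr2 at 39.2 ± 12.6 CPM in induced and 52.5 ± 32.7 CPM in control tumours. Pdgfrb, the receptor through which platelet-derived growth factor recruits pericytes, was at 90.1 ± 15.0 CPM in induced and 93.3 ± 23.5 CPM in control tumours, and control 1, with the second highest Rgs5, had the lowest Pdgfrb at 52.6 CPM.

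**Figure D5:**
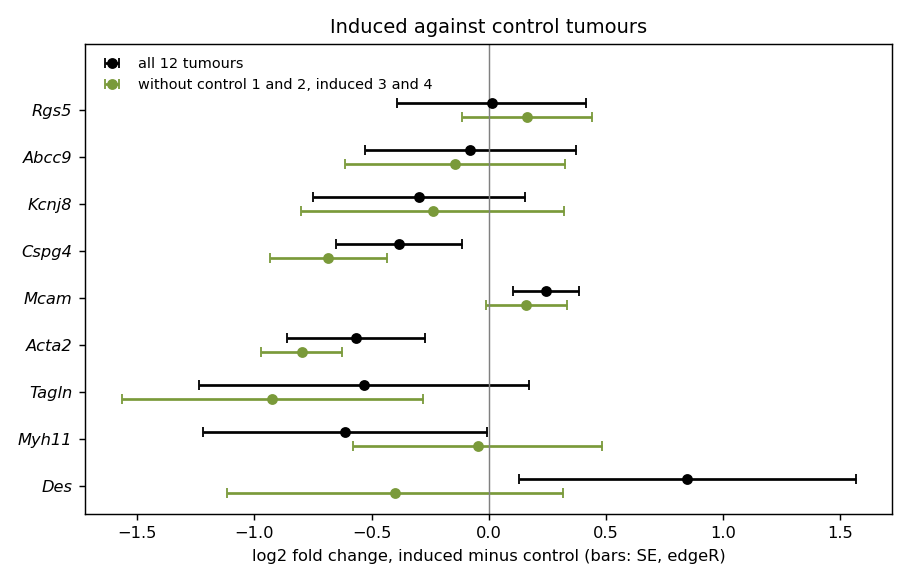
Log2 fold change (induced minus control) of the 9 tested genes with its SE, from edgeR over all 12 tumours (black) and over the 8 that did not stand apart (green). Acta2 is negative in both at -0.57 and -0.80, and Des has opposite signs.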

How the data were processed

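Per the labels' protocols, libraries were made with a SMARTER mRNA-seq preparation from 1.3 ug of column-purified RNA. The growth and treatment text of the labels describes fat cell differentiation of a mesenchymal line, which does not match tumours, so groups were taken from sample titles. The build was GRCm38 (mm10), per the submitters' processing notes, and no source used here names the aligner, counter, annotation or use of strand. The values deposited are raw counts for each Ensembl gene, rlog values on the log2 scale (not used), and the authors' comparison (log2 fold change, signed fold score, p-value and adjusted p-value, by a test that is not stated), per the file headers. Exon lengths and positions came from GENCODE mouse release 21, in which 25032 of 25116 IDs were found.

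Counts were fitted with edgeR 4.0.16 in R 4.3.3 (filterByExpr with a minimum count of 10, 15199 genes kept, TMM factors, robust quasi-likelihood F test, two-sided, Benjamini-Hochberg, threshold 0.05). CPM uses TMM-scaled library sizes and log2 CPM a prior count of 2. Exact tests used all 792 splits of 12 tumours into 7 and 5 and could not give a p below 0.00126, and their 95% intervals were read in steps of 0.01. Permutation tests of correlations drew 100000 resamples over 12 or 10 tumours and used all 40320 orders for 8, two-sided. On simulated counts for induced against control, with 14917 genes tested, the fit called 69 of 98 genes made to differ 2-fold and 80 of 91 made to differ 4-fold. It also called 4 of 14728 unchanged genes. The genes made to differ were picked at random, and the simulated tumours held no split like that of the 4 that stood apart. In the data the SE had a median of 0.18 over all genes tested, against 0.14 for Mcam to 0.72 for Des among the members. The simulated counts therefore do not give the chance of finding such changes in the members. Libraries of a group differed by a chi-square per gene of 13.0 to 220, so none were duplicates. The members and lists were chosen with earlier results of these data known. All members were named, from each other list up to 4 genes with the smallest p, plus genes that are singled out for their role, and for Rgs5, Acta2 and Myh11 the 5 genes with the highest r. Alternatives were other size factors, no filter, DESeq2 1.42.0, no robust estimation, a block for the replicate number, removal of each library and of the 4 that stood apart, and, added after the data were seen, removal of control 1 and induced 4 and the fit of the 10 blocked libraries without the block.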

Additional observations from a re-analysis of the deposited data

Results flagged for a closer look

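In 5 of 20 gene and group combinations a tumour lay far from the rest of its group, by the gap to its nearest neighbour as a share of the group's range. For normally distributed values chance flags about 1 in 20 groups. CPM values, used here without a log, need not be so distributed, and the rate for them is not known. The 5 are not independent, because they come from the same tumours. In induced tumours, induced 4 stood above the others for Rgs5 (18.9 CPM, share 0.648), Myh11 (1.74 CPM, share 0.583) and Tagln (4.21 CPM, share 0.701). In control tumours, control 1 stood above the others for Rgs5 (17.1 CPM, share 0.735) and Myh11 (3.57 CPM, share 0.812).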

How the results depend on the processing

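The count of genes past the threshold was 0 in every alternative run, for all genes, the members and the other lists, including DESeq2 (607 genes at an unadjusted p under 0.05) and the fit without the 4 tumours that stood apart. No alternative moved a member past the threshold. With single tumours left out, log2 fold changes ranged from -0.33 to 0.46 for Rgs5, -0.31 to 0.23 for Abcc9, -0.48 to 0.020 for Kcnj8, -1.22 to 0.10 for Tagln and -0.97 to 0.42 for Myh11, each with both signs, and from -0.77 to -0.34 for Acta2, -0.57 to -0.27 for Cspg4, 0.20 to 0.32 for Mcam and 0.44 to 1.36 for Des. Without the 4 tumours that stood apart, Abcc9 was at -0.14, Kcnj8 at -0.24 and Mcam at 0.16. Further changes of sign were Des at -0.40 without the 4 tumours, and Myh11 at 0.070 and Abcc9 at 0.013 without control 1 and induced 4, and the cause was not tested. Whether the replicate numbers pair the tumours is not stated in the sources used here. Deviations of same-numbered tumours correlated at -0.53 to 0.21, and 1 of 5 induced tumours correlated best with its own number. So few pairs cannot decide it. With a replicate block over numbers 1 to 5 the count was 0 and Abcc9 was at 0.24, against 0.16 without the block in the same 10 libraries, both of opposite sign to the value over all 12. Other size factors moved no member's level by more than its SD. Counting error limits Cnn1, Kcnj8, Abcc9, Tagln and Myh11, which had under 10 counts in at least 1 tumour.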
